A study of Mus musculus with 16 samples.

Results

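The Myc network and the D cyclins were followed through 10 genes, taken by symbol from both normalized count tables: Myc, its partner Max, the Max-binding repressors Mxd1, Mxd4 and Mnt, the D cyclins Ccnd1, Ccnd2 and Ccnd3, and the kinases Cdk4 and Cdk6. All 10 genes had 1 entry in the tumor table of 15080 genes and 1 in the stroma table of 13344 genes. To ask how host IL-6 alters leukemia and its marrow, BCR-ABL+, Arf-/- B-ALL cells, a male mouse line made mCherry+ with a retrovirus, were given by tail vein (500000 per mouse) to C57BL/6J hosts of 6 to 8 weeks, either wild type (WT) or lacking Il6 in all of their own cells (IL-6 KO). On day 8, without treatment, femur and tibia marrow was depleted of red cells and sorted into mCherry+ leukemic cells, called tumor, and mCherry- cells, the host's own, which carry the name stroma. The groups were WT tumor, IL-6 KO tumor, WT stroma and IL-6 KO stroma, each with 4 libraries, 16 in all. The labels number the libraries, but whether a tumor and a stroma library of 1 number come from 1 mouse was not given in the sources used here. Every tumor library comes from 1 leukemia line, so the spread does not measure separate leukemias. Whether each library is a separate mouse was not given either, so the spread may be technical.

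Myc binds DNA only as a dimer with Max, at E-boxes such as CACGTG, and raises the transcription of genes for ribosome assembly, nucleotide synthesis and growth. Mxd1, Mxd4 and Mnt compete for Max and bring the Sin3 corepressor to the same sites, Mxd proteins mostly in cells leaving the cycle. D cyclins rise with mitogen and cytokine signals and activate Cdk4 or Cdk6, which phosphorylate Rb and release E2F. In B-cell precursors Ccnd3 is the D cyclin that pre-B cell receptor and cytokine signals use, Ccnd2 answers to cytokine and BCR signals, and BCR-ABL+ leukemias are known for their reliance on CDK6.

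In tumor, 3 of the 10 genes passed the test between hosts, where 19.8% of all genes tested did: Cdk6 and Mnt were higher and Cdk4 was lower in IL-6 KO. The E-box of these 3 genes is shown first because Myc and its Max-binding rivals share it. The 250 bases before each RefSeq gene start (GRCm38.p6) are written 5′ to 3′ on the gene's strand, with CACGTG in capitals. CACGTG reads the same on both strands.
Cdk4, chr10:127063285-127063534, plus strand: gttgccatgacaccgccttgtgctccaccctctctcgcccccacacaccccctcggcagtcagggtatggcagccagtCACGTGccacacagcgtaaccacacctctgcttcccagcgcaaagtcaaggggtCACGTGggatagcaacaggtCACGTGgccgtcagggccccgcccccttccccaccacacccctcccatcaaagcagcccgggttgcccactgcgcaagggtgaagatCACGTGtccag
Cdk6, chr5:3343643-3343892, plus strand: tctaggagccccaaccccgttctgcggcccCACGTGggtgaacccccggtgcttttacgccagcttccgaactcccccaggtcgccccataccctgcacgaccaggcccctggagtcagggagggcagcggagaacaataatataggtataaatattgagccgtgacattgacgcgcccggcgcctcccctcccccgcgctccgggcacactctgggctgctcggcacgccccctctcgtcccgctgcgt
Mnt, chr11:74830674-74830923, plus strand: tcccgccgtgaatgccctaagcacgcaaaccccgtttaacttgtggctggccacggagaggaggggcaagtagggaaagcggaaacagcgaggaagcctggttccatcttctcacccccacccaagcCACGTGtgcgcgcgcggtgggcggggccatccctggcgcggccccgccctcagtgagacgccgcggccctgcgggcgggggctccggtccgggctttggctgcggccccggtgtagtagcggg
The Cdk4 window held 4 E-boxes, starting 172, 118, 98 and 11 bases before the gene start, while Cdk6 had 1 at 220 bases and Mnt 1 at 123 bases. The RefSeq start of Cdk6 differs from the GENCODE start, so its window lies inside the gene span given below (chr5:3341485-3531008). Of 32851 promoter windows of that length, 6.02% held at least 1 CACGTG and 0.0213%, which is 7 windows, held 4 or more. The promoter table matched 7 of the 10 genes with 8 windows. Myc, Ccnd1 and Ccnd2 had no window, so their promoters were not searched. Mxd4 also had 1 E-box, 219 bases before its start, and the windows of Max, Mxd1 and Ccnd3 had none. Neither the STAT motif TTCNNNGAA, found in 7.02% of all windows, nor the E2F motifs TTTGGCGC (0.417%) and TTTCCCGC (0.895%) occurred in any of the 8 windows on either strand. With shares this low, finding no match in 8 windows says little. A match describes letters, not binding, and these motifs were not set against expression.

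Libraries differed in ways that touch the values below. Normalized counts, the deposited unit, were normalized with DESeq2 for each table, so levels are compared between hosts only within a table. How the salmon values were brought into DESeq2 was not given in the sources used here. They summed to 38817800 to 44552100 in WT tumor and 47267000 to 55593000 in IL-6 KO tumor, and to 8805690 to 17470700 in WT stroma against 33973000 to 44192000 for the other host's stroma, while the median gene differed by less than 0.1 on the log2 scale in both tables. B-lineage markers (10 genes, summed) were at 135282 to 139836 in WT tumor and 146926 to 153984 in IL-6 KO tumor. Of these 10, 3 were higher and 1 was lower in IL-6 KO without overlap, beside 13.6% and 12.0% of all genes tested. Neutrophil precursor markers (8 genes) were low but differed in tumor, at 1727 to 2121 in WT and 2922 to 7976 in IL-6 KO, and all 8 were higher in IL-6 KO without overlap. Summed mature neutrophil markers were at 1874 to 2483 in WT tumor and 2511 to 6074 in IL-6 KO tumor. Of 8 T and NK markers, Cd3e, Cd3d, Cd3g and Cd8a had no entry in either table. The 4 with entries in tumor had sums of 579 to 733 in WT and 544 to 697 in IL-6 KO. In stroma 2 had entries, with sums of 6.49 to 44.8 in WT and 0 to 22.4 in IL-6 KO. Stroma was led by erythroid markers, whose sums were 121466 to 177612 in WT hosts and 51140 to 216187 in IL-6 KO hosts. Neutrophil precursor sums there were 3511 to 7706 in WT hosts and 20542, 20197, 3453 and 14698 in IL-6 KO libraries 1 to 4. Mature neutrophil sums were 3268 to 6179 and 3576 to 9259. Of 8 mesenchymal and endothelial markers, 5 had entries in stroma, with sums of 292 to 562 in WT and 183 to 1662 in IL-6 KO. Cxcl12, Lepr and Cdh5 had none. Stroma here means mCherry- marrow cells. In these sorted bulk samples, a change in a cell type's share and a change in RNA per cell cannot be told apart. Il6 itself was in neither table, so the host genotype could not be checked from the RNA.

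In tumor, 2870 of 14493 genes tested passed an adjusted p of 0.05 (19.8%), 10.6% higher and 9.16% lower in IL-6 KO, and of the 10 genes 2 were higher and 1 was lower. The split of all calls moved from 53.7% higher to 37.2% when libraries were rescaled to their sums without the 20 highest genes and to 69.6% with GC and length trends removed. The total was 1791 without WT library 2, 1722 without WT library 3, 1617 without IL-6 KO library 1 and 1569 without IL-6 KO library 4. The 3 calls described next held under each of 19 alternatives, single-library omissions and rescalings included.

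Cdk6 (chr5:3341485-3531008), the kinase partner of D cyclins that dominates in many blood cells, had the clearest difference of the 10. WT tumor libraries had normalized counts of 21222, 17347, 19384 and 20336, and IL-6 KO tumor libraries 30572, 37484, 29790 and 30386. The hosts did not overlap, as was so with higher IL-6 KO values for 13.6% of all genes tested, and IL-6 KO library 2 stood above the rest of its group. The group levels were 19572 ± 1662 and 32058 ± 3633 (SD, n = 4), 1.64-fold higher in IL-6 KO, with a log2 fold change of 0.71 (SE 0.09, adjusted p = 0.00179). Leaving out 1 library at a time gave log2 fold changes from 0.63 to 0.75. The gene lies 26.48 Mb from Il6 on chromosome 5, and the leukemic cells of both hosts are 1 line.

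Cdk4 (chr10:127063534-127067920), the other D cyclin kinase, moved the opposite way. Its tumor levels were 15832, 15179, 14628 and 15027 in WT and 12002, 12360, 13213 and 12790 in IL-6 KO. Every IL-6 KO library was below every WT library, as for 12.0% of all genes tested, and the spread within each host was small. Levels were 1.20-fold lower in IL-6 KO, with a log2 fold change of -0.27 (SE 0.06, adjusted p = 0.0113). Cdk4 overlaps the 3′ end of Tspan31, which runs on the opposite strand and had a log2 fold change of -0.08 (adjusted p = 0.646).

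Because both kinases bind the same cyclins, their balance was taken within each library, where any scaling factor common to all genes of a library cancels. Per kilobase of transcript, Cdk6 made up 18.7 ± 1.18% of the Cdk4 and Cdk6 sum in WT tumor and 31.2 ± 2.81% in IL-6 KO tumor (SD, n = 4). The single libraries were at 19.3, 16.9, 19.1 and 19.4% in WT and at 31.2, 35.1, 28.7 and 29.7% in IL-6 KO, again without overlap. The difference of 12.5 percentage points had p = 0.0286 in a two-sided exact permutation test, the smallest p that 4 against 4 libraries allow. Adjustment over the 8 shares tested gave 0.229. A share that stands alone at the smallest p cannot pass this adjustment, so the adjusted value could not decide the question. Cdk6 is given here by its longest coding transcript, and a shorter isoform would raise its share in all libraries. Not divided by length, the Cdk6 share was 56.3% in WT tumor and 71.7% in IL-6 KO tumor. Which of the kinases had more thus depends on the length used. In stroma the share was 55.3 ± 6.84% in WT and 55.6 ± 13.3% in IL-6 KO (exact permutation p = 1.0).

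Mnt (chr11:74830920-74845725), the Max-binding repressor present in both resting and dividing cells, was the only repressor of the 3 to pass the test in tumor. WT libraries had normalized counts of 1510, 1210, 1212 and 1429, and IL-6 KO libraries 1985, 2235, 1639 and 2140. The lowest IL-6 KO library, number 3, was still above the highest WT library, as for 13.6% of all genes tested. Levels were 1.49-fold higher in IL-6 KO, with a log2 fold change of 0.57 (SE 0.12, adjusted p = 0.0102).

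The marker differences above run alongside these 3 calls. IL-6 KO library 3 had the lowest neutrophil precursor sum of its group, 2922, and its values of Cdk6 (29790), Cdk4 (13213) and Mnt (1639) were the closest of the 4 to the WT libraries, yet outside their range. The part of the neutrophil markers in these differences was not tested.

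**Figure D1:**
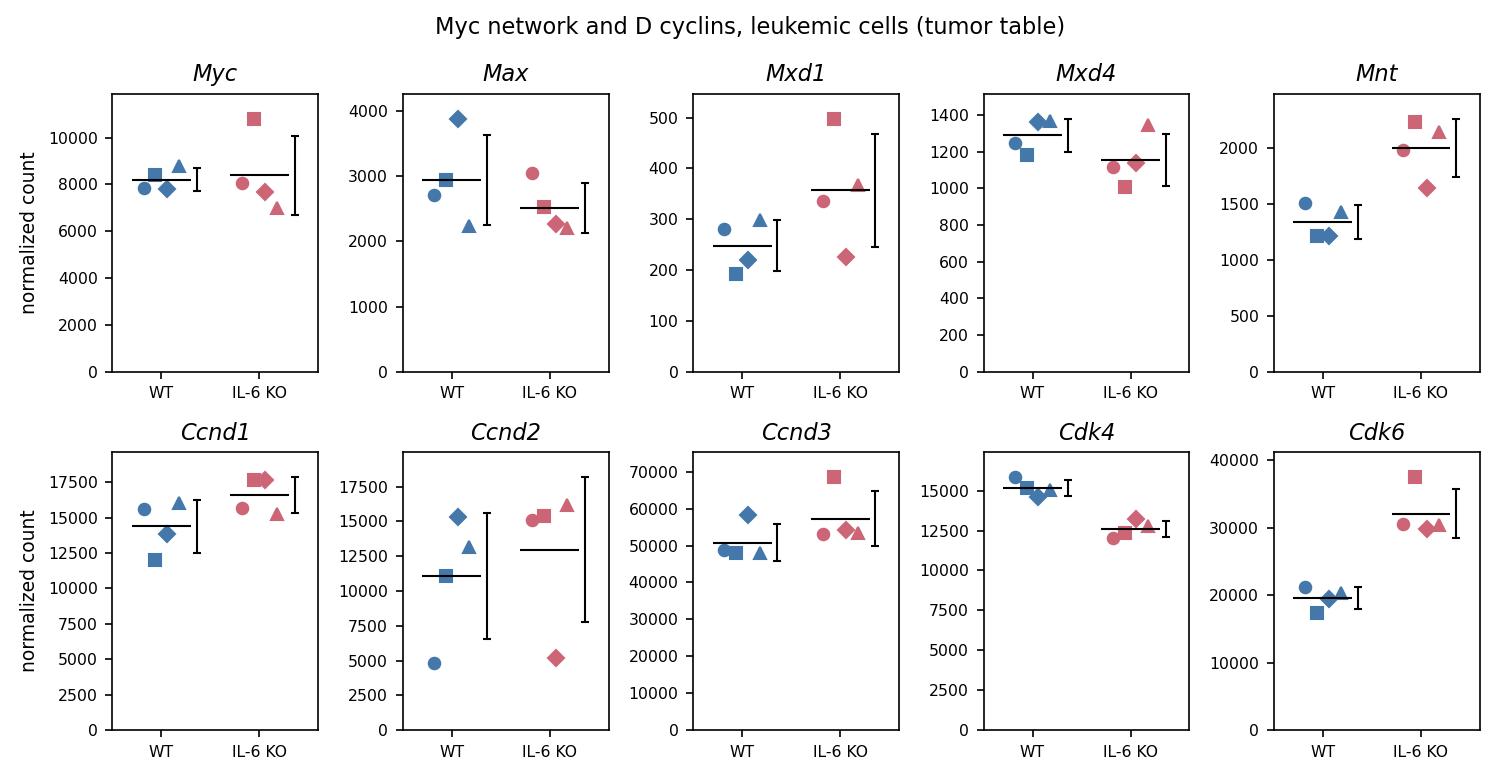
Normalized counts (vertical axes, each from 0) of the 10 genes in WT and IL-6 KO tumor libraries; symbols are single libraries (circle 1, square 2, diamond 3, triangle 4), lines are means and bars are SD (n = 4). Hosts separate for Cdk6 and Mnt, which were higher in IL-6 KO, and for Cdk4, which was lower; Ccnd2 is low in WT library 1 (4820) and IL-6 KO library 3 (5183).

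Myc (chr15:61985391-61990374) itself did not pass the test. Its tumor levels were 7839, 8413, 7793 and 8788 in WT and 8069, 10802, 7686 and 6975 in IL-6 KO. The IL-6 KO range enclosed the WT range, with library 2 highest. The log2 fold change was 0.01 with a 95% interval from -0.26 to 0.28 (adjusted p = 0.957), and its sign turned under 5 other scalings, weightings or corrections of all libraries and on leaving out any of 3 libraries. Max (chr12:76937269-76962201), the obligate partner, had 2715, 2946, 3882 and 2241 in WT and 3052, 2529, 2275 and 2201 in IL-6 KO (log2 fold change -0.21, interval -0.57 to 0.15, adjusted p = 0.383). These hosts overlapped almost throughout.

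The other repressors were less clear than Mnt. Mxd1 (chr6:86647042-86669161), which is induced as myeloid and lymphoid cells mature, was the scarcest of the 10 in tumor, at 281, 193, 219 and 298 in WT and 336, 498, 226 and 367 in IL-6 KO. The only IL-6 KO library inside the WT range was number 3. Its log2 fold change was 0.49 with an interval from -0.03 to 1.02 (adjusted p = 0.167), and without IL-6 KO library 3 it was 0.69 with an adjusted p of 0.0498. Mxd4 (chr5:34173883-34187720), which lies 4.15 Mb from Il6, had 1246, 1182, 1359 and 1368 in WT tumor and 1116, 1009, 1136 and 1346 in IL-6 KO tumor (log2 fold change -0.17, interval -0.39 to 0.06, adjusted p = 0.269). Its IL-6 KO libraries 1, 2 and 3 were below all WT libraries and library 4 was not. Per kilobase, Myc made up 83.8 ± 1.25% of the summed Myc, Mxd1, Mxd4 and Mnt in WT tumor and 81.3 ± 3.15% in IL-6 KO tumor (SD, n = 4), given as a description.

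No D cyclin passed the test in tumor. Ccnd3 (chr17:47505051-47599691) was the most abundant gene of the 10, at 48886, 48011, 58215 and 48076 in WT and 53100, 68480, 54292 and 53360 in IL-6 KO. All IL-6 KO libraries were above 3 of the 4 WT libraries, and WT library 3 lay among them. Its log2 fold change was 0.17 (interval -0.05 to 0.39, adjusted p = 0.248), and it was -0.01 under quantile normalization and -0.03 with GC and length trends removed. Ccnd3 shares its 3′ end with the opposite-strand gene Bysl, which rose by 0.43 (log2 fold change, adjusted p = 0.0156), and the strand setting of the counting was not given.

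Ccnd1 (chr7:144929931-144939925), rarely the main D cyclin of blood cells, ranked next after Ccnd3 and Cdk4 per kilobase in these leukemic cells, with normalized counts of 15611, 12004, 13828 and 16049 in WT and 15712, 17672, 17654 and 15253 in IL-6 KO. IL-6 KO libraries 2 and 3 exceeded all WT libraries and the other two did not. The log2 fold change was 0.21 (interval -0.01 to 0.43, adjusted p = 0.155). Its opposite-strand neighbour LTO1, which overlaps its 3′ end, was at 341 to 549 in WT and 395 to 522 in IL-6 KO.

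Ccnd2 (chr6:127125162-127152193) varied more between libraries of a host than between hosts. It was at 4820, 11053, 15326 and 13160 in WT tumor and at 15119, 15409, 5183 and 16164 in IL-6 KO tumor, so WT library 1 and IL-6 KO library 3 had less than each other library by a wide margin. The highest library had 3.18 times the lowest in WT and 3.12 times the lowest in IL-6 KO. For the host comparison the log2 fold change was 0.22 (interval -0.74 to 1.17, adjusted p = 0.756), and without WT library 1 it was -0.14 and without IL-6 KO library 3 it was 0.61.

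**Figure D2:**
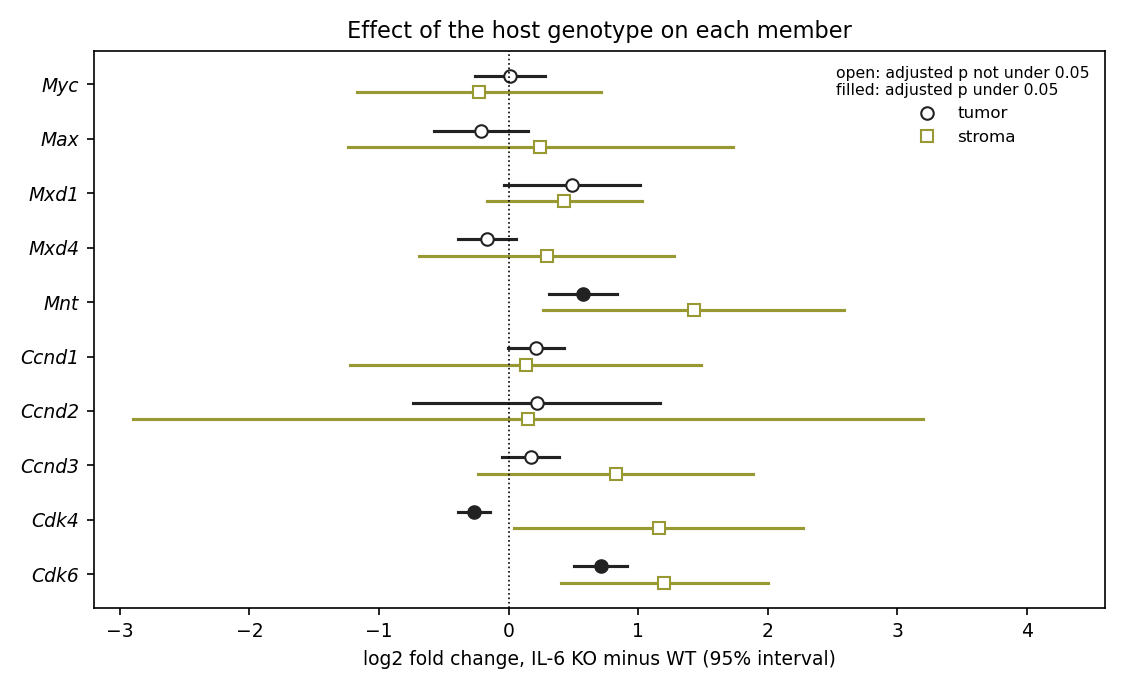
Log2 fold change (IL-6 KO minus WT, horizontal axis) of each gene with its 95% interval in tumor (black circles) and stroma (olive squares); filled symbols passed an adjusted p of 0.05. Only Mnt, Cdk4 and Cdk6 in tumor are filled, and the stroma intervals are wider for all 10 genes.

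Levels of different genes were compared per kilobase of the longest coding transcript. In WT tumor the order of mean normalized counts per kilobase was Ccnd3 (24040), Cdk4 (7387), Ccnd1 (3843), Myc (3511), Ccnd2 (1752), Cdk6 (1698), Max (1517), Mxd4 (333), Mnt (292) and Mxd1 (53.1). Library ranges overlapped for the neighbours Ccnd1 and Myc, Ccnd2 and Cdk6, Cdk6 and Max, and Mxd4 and Mnt, and not for the other five neighbouring pairs. In IL-6 KO tumor Cdk6 (2782) came before Ccnd2 (2049) and Mnt (436) before Mxd4 (297), in all 4 libraries for both pairs, while the rest kept their places. Among the D cyclins, Ccnd3 took 81.1 ± 2.01% of the per-kilobase sum in WT tumor and 80.6 ± 1.67% in IL-6 KO tumor, Ccnd1 13.0 ± 2.04% and 13.3 ± 1.34%, and Ccnd2 5.84 ± 2.12% and 6.08 ± 2.44% (SD, n = 4). The 3 differences were below 0.5 percentage points, with exact permutation p from 0.771 to 0.857.

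The stroma showed other proportions. In WT stroma the order per kilobase was Ccnd3 (463), Mxd1 (432), Max (185), Ccnd2 (85.5), Ccnd1 (81.0), Myc (71.0), Mxd4 (45.1), Cdk6 (44.7), Cdk4 (38.7) and Mnt (28.5), and of the 9 neighbouring pairs only Mxd1 and Max had ranges that did not overlap. Mxd1 made up 75.3 ± 8.66% of the summed Myc, Mxd1, Mxd4 and Mnt in WT stroma and 76.5 ± 4.72% in IL-6 KO stroma, against 1.27 ± 0.23% and 1.72 ± 0.37% in tumor. Myc made up 12.5 ± 5.96% and 7.51 ± 1.12% in stroma. Every stroma library had more Mxd1 than Myc and every tumor library the reverse. These shares do not depend on a scaling factor common to all genes of a library, and the difference between compartments was not tested.

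**Figure D3:**
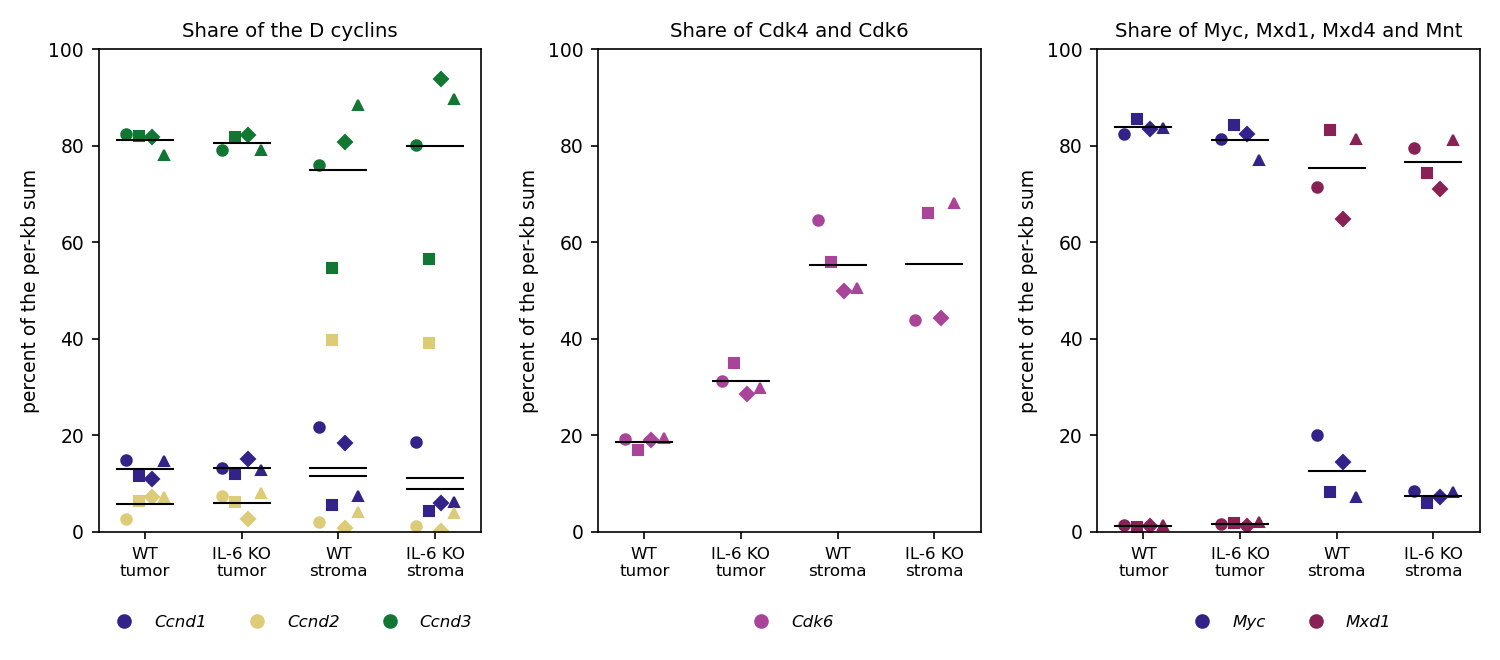
Share of each gene in the per-kilobase sum of its set (percent, vertical axis) in the 4 groups; symbols are single libraries (circle 1, square 2, diamond 3, triangle 4) and lines are means. Cdk6 gains on Cdk4 in IL-6 KO tumor (31.2% against 18.7%), Mxd1 outweighs Myc in stroma, and Ccnd2 is near 39% of the D cyclins in library 2 of both stroma groups and at most 4.13% in the other stroma libraries.

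None of the 10 genes passed the test between hosts in stroma, where 1 of 12202 genes did (0.0082%) and 9.15% had an unadjusted limma p under 0.05. Unadjusted, 3 of the 10 were under 0.05, and they are the same 3 genes as in tumor. Cdk6 was at 374, 424, 458 and 803 in WT hosts and at 944, 2026, 844 and 1018 in IL-6 KO hosts. It was the only one of the 10 whose hosts did not overlap there, where 2.54% of all genes were higher and 3.25% lower in IL-6 KO without overlap. The log2 fold change was 1.20 (SE 0.37, unadjusted p = 0.00632, adjusted p = 0.412), and the adjusted p lay between 0.121 and 0.811 over the alternatives. Here the hosts' own Il6 deletion lies on the same chromosome as Cdk6 and Mxd4, and flanking sequence carried with it cannot be told apart from the genotype.

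Mnt was at 48.9, 64.6, 284 and 125 in WT hosts and 286, 434, 236 and 208 in IL-6 KO hosts. Only WT library 3 reached the IL-6 KO range (log2 fold change 1.43, SE 0.54, adjusted p = 0.461). Cdk4 was at 36.3, 59.8, 81.8 and 140 in WT and 215, 185, 189 and 84.8 in IL-6 KO, the direction opposite to tumor (log2 fold change 1.16, SE 0.51, adjusted p = 0.531). Whether the host effect differs between compartments was not tested, since the tables were normalized separately.

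Ccnd2 in stroma turned on 1 library of each host. It was at 74.6, 1914, 34.3 and 142 in WT and 68.5, 4388, 41.4 and 84.3 in IL-6 KO, and library 2 held 39.7% and 39.1% Ccnd2 among the D cyclins against 0.27 to 4.13% in the other libraries. Library 2 also had the highest B-lineage marker sum of each host, 1584 in WT and 1582 in IL-6 KO, among sums of 557 to 1359 elsewhere. The part of B-lineage cells in the Ccnd2 values was not tested. The log2 fold change was 0.15 (interval -2.90 to 3.20), and it was -1.38 without IL-6 KO library 2, 1.33 without WT library 2, -0.22 without WT library 1 and -0.59 without WT library 3.

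Ccnd3 was at 881 to 1122 in WT stroma and 631 to 4723 in IL-6 KO stroma, highest in IL-6 KO library 3 and lowest in IL-6 KO library 4 (log2 fold change 0.82, adjusted p = 0.62). IL-6 KO library 3 also had the largest erythroid marker sum, 216187, and library 4 the smallest, 51140. Their part in the Ccnd3 values was not tested. Mxd1, second in level per kilobase there, was at 1625, 1955, 2049 and 2430 in WT and 2954, 2593, 2097 and 3246 in IL-6 KO. Its IL-6 KO libraries 1, 2 and 4 exceeded all WT libraries, and library 3, which also had the lowest neutrophil precursor sum (3453), did not (log2 fold change 0.43, interval -0.17 to 1.03, adjusted p = 0.653). Myc was at 97.4 to 229 and 105 to 165, Max at 94.9 to 647 and 134 to 765, Mxd4 at 108 to 301 and 126 to 331, and Ccnd1 at 149 to 453 and 78.3 to 574, in WT and IL-6 KO respectively. These 4 genes had log2 fold changes of -0.23, 0.25, 0.29 and 0.13, with adjusted p from 0.878 to 0.971.

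**Figure D4:**
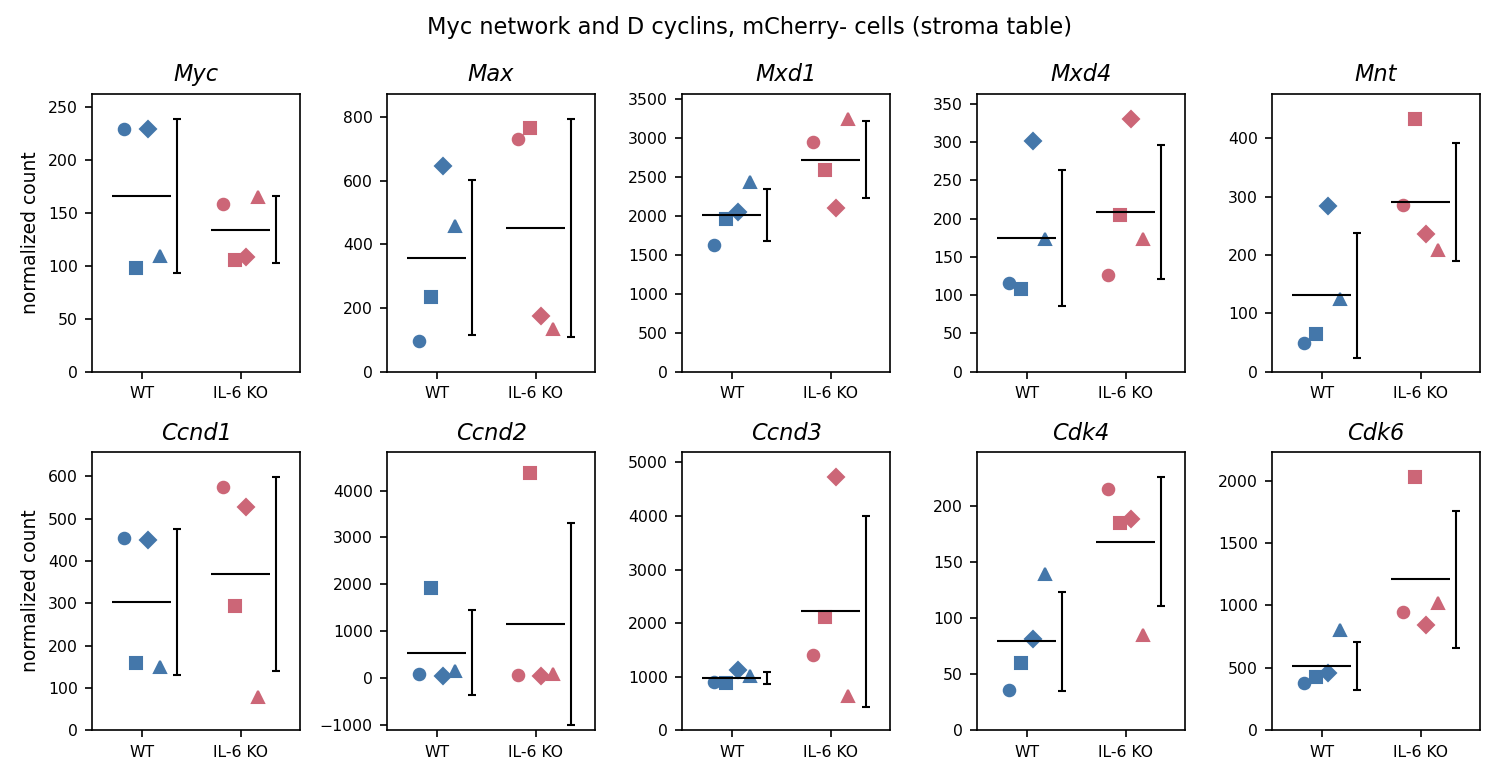
Normalized counts (vertical axes) of the 10 genes in WT and IL-6 KO stroma libraries, drawn as for tumor; the axis of Ccnd2 runs below 0 only to hold its SD bars. Cdk6 is the one gene whose hosts do not overlap (374 to 803 against 844 to 2026), and Ccnd2 is high only in library 2 of each host.

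Around the 10 genes, genes of the same pathways were counted in tumor. Myc target genes, chosen as widely known targets, had 23 of 48 members past the test, 22 higher in IL-6 KO (45.8%, against 10.6% of all genes) and 1 lower, with a median log2 fold change of 0.24 against -0.01 over all genes tested. The share called higher was larger among better expressed genes. With means over 50, 1547 of 11238 genes and 22 of the 48 targets were called higher. Myc itself did not pass the test. Those with the smallest adjusted p were the serine and glycine enzyme Shmt2 (log2 fold change 0.57), the spermidine synthase Srm (0.58), the nucleolar protein Mybbp1a (0.41), the ribosome assembly factor Rrp12 (0.57), nucleolin Ncl (0.42) and the box C/D snoRNP protein Nop56 (0.44), with adjusted p from 0.00194 to 0.00435. Shmt2 was at 12118 ± 729 in WT and 18071 ± 1578 in IL-6 KO, and Ncl at 46130 ± 3186 and 61437 ± 2021 (SD, n = 4). The target that fell, named after its values were seen, was C1qbp, a mitochondrial matrix protein (-0.34, adjusted p = 0.0168), and it missed the threshold without IL-6 KO library 1 (adjusted p = 0.0537). Ncl missed it under quantile normalization (0.18). The count was 14 under quantile normalization (13 higher) and without IL-6 KO library 1, and 15 without IL-6 KO library 4. With GC and length correction alone, Nop2, Bop1, Ppan, Tcof1, Cad, Phb, Phb2, Tfap4 and Aimp2 lost their calls, Phb at 0.12 (adjusted p = 0.448). Rescaling without the 20 highest genes lost those of Dkc1, Tcof1, Hk2, Phb, Pa2g4, Ran and Imp4. These were named after their values were seen. Shmt2, Srm, Mybbp1a, Rrp12 and Nop56 kept their calls under all 19 alternatives. The list was chosen with earlier results of these data known.

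Of 18 Myc cofactors and regulators of Myc stability, 6 passed, 4 higher and 2 lower, beside 19.8% of all genes (10.6% higher and 9.16% lower), with a median log2 fold change of 0.06 over the list. The corepressor Sin3b, which Mxd and Mnt recruit, was higher (0.42, adjusted p = 0.0163), and that call was lost with GC and length correction (0.24) and without IL-6 KO library 4 (adjusted p = 0.0526). The helicase Ruvbl1 was higher (0.24, adjusted p = 0.0291) and lost its call under 10 of 19 alternatives. Gsk3b, the kinase that marks both Myc and D cyclins for degradation, was lower, at 6209 ± 562 in WT and 4494 ± 328 in IL-6 KO (SD, n = 4; -0.46, adjusted p = 0.00597), and missed the threshold with GC and length correction alone (-0.27, adjusted p = 0.0599). Ruvbl2, the partner of Ruvbl1, was also lower (-0.65) and kept its call under all 19. Of 8 further network genes 7 were tested and 2 passed: Mxd3, a Max-binding repressor of proliferating cells, was higher (0.46, adjusted p = 0.025), and Mycl, named after its values were seen, was lower on few counts (50.02 ± 41.66 against 4.84 ± 2.12, adjusted p = 0.0369). Both calls were lost without WT library 3 or 4 or IL-6 KO library 1 or 4, Mxd3 also with GC and length correction (0.24), and Mycl also without WT library 2 or IL-6 KO library 3, under quantile normalization and with the block.

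Downstream of the D cyclins, 3 of 14 genes of the Rb, E2F and cyclin E list passed, a share near the 19.8% of all genes tested. E2f1, an activator of S-phase genes, was higher (0.41, adjusted p = 0.0141), and so was E2f4, which mostly represses with Rb relatives (0.32, adjusted p = 0.0229). Rb1, the target of Cdk4 and Cdk6, was at 1534 ± 204 in WT and 1061 ± 140 in IL-6 KO (SD, n = 4), lower by a log2 fold change of -0.53 (adjusted p = 0.0164). With GC and length correction none of these 3 passed (E2f1 0.20, E2f4 0.12 and Rb1 -0.24), and E2f4 missed the threshold under 8 of 19 alternatives, among them those without WT library 2 or IL-6 KO library 1 or 4. Among CDK inhibitors, 5 of 7 were tested and 1 passed, again near 19.8%: Cdkn2d, the p19 Ink4 protein that binds Cdk4 and Cdk6, was higher (0.39, adjusted p = 0.0171), a call lost with GC and length correction (0.19) and without IL-6 KO library 1 (0.34). Of 7 genes of the CDK-activating kinase and of D cyclin turnover, Gsk3b alone passed (19.8% of all genes did), and the list's median was -0.19, against 0.00052 with GC and length correction.

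**Figure D5:**
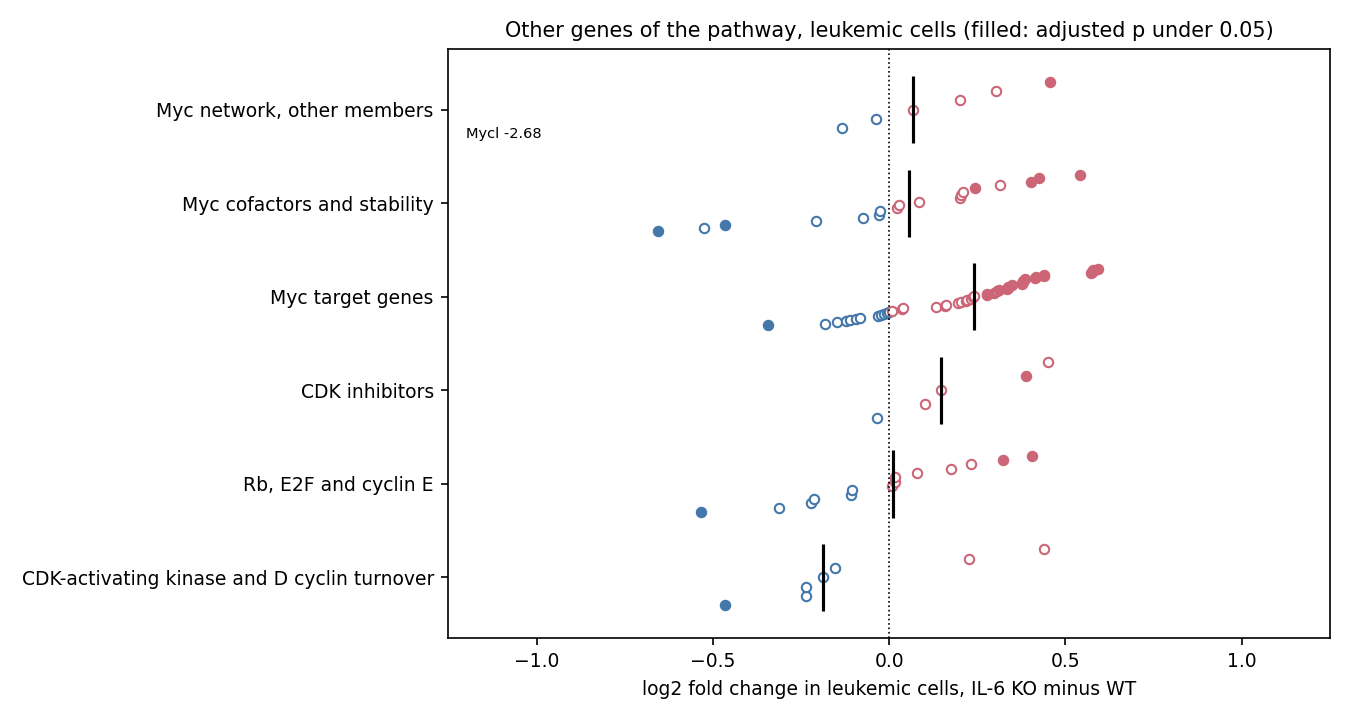
Log2 fold change in tumor (IL-6 KO minus WT, horizontal axis) of the tested genes of each list, red above 0 and blue below; filled points passed an adjusted p of 0.05 and vertical lines are list medians, with Mycl (-2.68) written at the edge. The Myc target genes lie mostly to the right, 36 of 48 above 0 with a median of 0.24.

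In stroma no gene of these lists passed the test, and 8 of 98 list places tested (Gsk3b stands in 2 lists) had an unadjusted limma p under 0.05 (8.16%, below the 9.15% of all genes). The genes with the smallest unadjusted p of each list, given as values, were Tfdp2, the E2F dimer partner (log2 fold change -1.08, adjusted p = 0.324), Cip2a, a stabilizer of Myc (-1.23, adjusted p = 0.374), the D cyclin degradation adaptor Ambra1 (-1.34, adjusted p = 0.461), the rRNA processing factor Rrp9 (1.40, adjusted p = 0.494), the repressor Mxi1 (-0.71, adjusted p = 0.558) and the inhibitor Cdkn2c (-0.60, adjusted p = 0.586). Next in each list were Rb1 (-1.67), Huwe1 (1.304), Ccnh (1.24), Odc1 (-0.97), Mlxip (0.46) and Cdkn1b (-0.41), with adjusted p from 0.432 to 0.713. Median log2 fold changes of the lists ran from -0.44 for the CDK inhibitors to 0.28 for the Myc targets, against -0.01 over all genes tested.

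Over the 8 tumor libraries, the genes whose log2 levels followed a given gene most closely were sought among 10249 genes with a mean of at least 100. For Myc they were Klhl15 (Pearson r = 0.97), Noa1 (0.96) and Por (0.96), and for Ccnd1 they were Sorcs2 (0.97), Trp53rkb (0.97) and Cdk9 (0.96). For Ccnd2 they were Myl10 (0.98), Whamm (0.91) and Mtss2 (0.90), and for Ccnd3 they were Zfp106 (0.98), Fes (0.96) and Prr13 (0.96). The points share the host groups and the libraries' scaling, and so many genes were searched that these values are a description.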

How the data were processed

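RNA of mCherry+ and mCherry- marrow cells was made into strand-marking, rRNA-depleted libraries and read as 75-nt single ends. The authors quantified transcripts with salmon (1.3.0) on mm10 and deposited a signal per gene, the count normalized with DESeq2 (1.28.1), tumor and stroma separately. Values were not whole reads, so each library's mapped read total is unknown and no count test was run. The authors' own comparison tables (fold changes and p-values) were not used.

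Values were tested in limma 3.58.1 (R 4.3.3) on log2(normalized count + 1), with a variance trend, for genes with a mean over 10, IL6KO against WT within each table, with Benjamini-Hochberg adjustment over all genes tested and a threshold of 0.05. Fold changes are on that scale, which understates those of low genes. Whether each numbered library is a separate mouse was not given in the sources used here, so p-values measure only the spread between these libraries, which may be technical. Shares were compared by two-sided exact permutation over the 70 splits of 8 libraries. Transcript lengths and coordinates came from GENCODE vM21 (GRCm38, the build of mm10) and promoters from RefSeq. The script was tested on simulated data. The members, lists and alternatives were chosen with earlier results of these data known. Named were the members, up to 6 genes of each list with the smallest adjusted p in tumor (passing, mean at least 50), up to 2 with the smallest p in stroma, and the 3 genes most like Myc and each D cyclin (mean at least 100). Some genes that this rule names are not reported here. Whether replicate numbers pair the libraries was not given, and the main test used no pairing (correlations are given with the alternatives). The tables hold no copies of the members at 97% identity over 150 nt other than the overlapping genes Tspan31, Bysl and LTO1. Alternatives were pseudocounts of 0.5 and 5, other filters and scalings, array weights, a replicate block, GC and length correction, and leaving out each library.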

Additional observations from a re-analysis of the deposited data

Results flagged for a closer look

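Within groups of 4 libraries, a value was singled out where its gap to the nearest other library was a larger part of the group's range than Dixon's 95% limit for 4 values. Of 56 groups of values 12 met this, where chance gives about 1 in 20 for independent, normally distributed values. Shares are built from the same counts as the genes, so the groups are not independent and the excess was not tested.

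Of the 12, 8 were in the library numbered 2 of its group. Cdk6 was 37484 in IL-6 KO tumor library 2 (others 29790 to 30572) and 2026 in IL-6 KO stroma library 2 (others 844 to 1018). The Cdk6 share of Cdk4 and Cdk6 was 16.9% in WT tumor library 2 (others 19.1 to 19.4%). Ccnd3 was 68480 in IL-6 KO tumor library 2 (others 53100 to 54292). Ccnd2 was 1914 in WT stroma library 2 (others 34.3 to 142) and 4388 in IL-6 KO stroma library 2 (others 41.4 to 84.3), with shares of the D cyclins of 39.7% and 39.1%.

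Single values stood apart in other libraries too. Ccnd3 was 58215 in WT tumor library 3 (others 48011 to 48886), and its share of the D cyclins was 78.1% in WT tumor library 4 (others 81.8 to 82.4%). Ccnd2 was 5183 in IL-6 KO tumor library 3 (others 15119 to 16164), the lowest of its group as WT library 1 (4820) was of its own. The Ccnd1 share of the D cyclins was 18.6% in IL-6 KO stroma library 1 (others 4.44 to 6.28%).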

How the results depend on the processing

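The calls of Cdk6, Mnt and Cdk4 in tumor held under all 19 alternatives, with log2 fold changes of 0.61 to 0.97, 0.41 to 0.67 and -0.36 to -0.25, and none of the 10 genes was called in stroma under any. Values with all libraries that turned sign were Myc in tumor under quantile normalization (-0.043), rescaling to the sum without the 20 highest genes (-0.055), array weights (-0.10) and GC and length correction with or without the block (-0.080), Ccnd3 in tumor under quantile normalization (-0.0080) and GC and length correction with or without the block (-0.027), and the Cdk6 share in stroma not divided by length (-0.44 percentage points). Causes were not tested.

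Over all genes tested, deviations of same-numbered WT and IL-6 KO libraries correlated at -0.02 to 0.00 in tumor and -0.03 to 0.13 in stroma. Differently numbered stroma libraries correlated at -0.15 to 0.14. Stroma library 2 had a high Ccnd2 share of the D cyclins in both hosts (39.7% and 39.1%). Whether the numbers pair the stroma libraries was therefore not settled. With the replicate block 2230 genes were called in tumor and 1 in stroma, and the share difference of Cdk6 in tumor was 12.5 with a smallest possible p of 0.125 within pairs. With GC and length correction and the block 1790 were called in tumor. Of the network list 1 gene was called with means over 50, quantile normalization, the block and GC correction, and 0 with GC correction and the block. Of the CDK inhibitors 2 were called with means over 50 and array weights and 0 with GC correction, with or without the block. Of the Rb list 5 were called with array weights and 1 with GC correction, with or without the block, this 1 being none of the 3 called otherwise. Of the turnover list 2 were called with array weights and with GC correction and the block, and with GC correction alone 1, in which Gsk3b (adjusted p = 0.0599) had given way to a gene higher in IL-6 KO. Of the Myc targets 14 were called under quantile normalization. In stroma 4 genes were called with array weights and 2 with GC correction.

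Without 1 library, calls ran from 1569 to 3327 in tumor and from 1 to 3 in stroma, and calls among the 10 from 3 to 4 in tumor, Mxd1 passing without IL6KO_tumor replicate 3. Called list members in tumor ran from 0 to 2 (network), 4 to 9 (cofactors), 14 to 27 (targets), 0 to 2 (inhibitors), 2 to 4 (Rb) and 1 to 2 (turnover). Log2 fold changes in tumor ran from -0.12 to 0.094 for Myc, 0.31 to 0.69 for Mxd1 and -0.14 to 0.61 for Ccnd2, and in stroma from -0.28 to 0.69 for Max, -0.20 to 0.76 for Ccnd1 and -1.38 to 1.33 for Ccnd2. Share differences in percentage points ran from -0.46 to 0.83 (Ccnd1), -0.80 to 1.39 (Ccnd2) and -1.46 to 0.016 (Ccnd3) in tumor, and from -9.83 to 8.81 (Ccnd2), -1.78 to 12.8 (Ccnd3) and -3.86 to 4.24 (Cdk6) in stroma. Mapped read totals per library were not known, so no limit from counting could be given.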
